A study of Oryza sativa with 12 samples.

Results

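Homeodomain-leucine zipper (HD-Zip) factors were followed in stem bases of rice seedlings, where crown roots arise. The members were all nuclear genes with a probe set of their own whose symbol or synonym in the gene table is HOX or ROC followed by digits. The table held 35 such genes, and 33 of them had a probe set of their own, out of 17903 nuclear genes that had one. HOX3 (LOC4326566) and ROC9 (LOC4325622) had none, so no value is given for them. By the published rice classification, 12 members belong to HD-Zip I, 8 to HD-Zip II, 5 to HD-Zip III and 8, the ROC genes, to HD-Zip IV. The brightest probe set of a gene on mean log2 signal stood for the gene.

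The plants were 8-day-old seedlings of Oryza sativa cv. Taichung 65, either crl1 (crown rootless 1, a mutant that forms no crown roots) or wild type, grown in sterile culture. Indole-3-acetic acid (IAA, the natural auxin) was added to a final 1e-06 M. The crl1 groups were taken 0 h (before IAA), 2 h and 4 h after it, and so were the wild-type groups. Each extract came from 20 stem bases and was hybridised to 1 Affymetrix Rice Genome Array, giving 2 arrays per group, numbered by repetition of the experiment, and 12 arrays in 6 groups. CRL1 is known as a LOB-domain transcription factor induced by auxin; its own level was not analysed here. Arrays of seedlings kept for 2 h or 4 h without IAA were not analysed here, so effects of IAA and of elapsed time cannot be told apart.

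HD-Zip proteins are found in plants. A homeodomain contacts DNA, and the adjoining leucine zipper lets the proteins pair before they bind. HD-Zip I factors are known mainly from drought, abscisic acid and organ growth, and HD-Zip II factors, in Arabidopsis, from shade and auxin responses. HD-Zip III factors pattern vascular tissue, meristems and the upper side of leaves, and their transcripts are cut at a site matched by the microRNAs miR165 and miR166. HD-Zip IV factors act in the epidermis, and the name ROC stands for rice outermost cell-specific. A stem base holds all these tissues, and in RNA from whole stem bases fewer cells of a type and less RNA per cell cannot be told apart.

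Of the 33 members, 25 had signals above background on all 12 arrays. Background on an array was set at percentile 95 of its reporter probe sets, which target genes that rice lacks, and was 5.83 to 18.5 signal units per array. HOX29 and ROC4 were above it on 11 arrays, HOX14 and HOX24 on 10, HOX17 on 8 and HOX11 on 3. ROC7 (LOC4344614) and ROC8 (LOC4340445) were at or below it on all 12 arrays, with signals of 0.185 to 7.32 and 0.278 to 7.60. They did not pass the filter on low signal, so 31 members were tested among 32524 probe sets (16438 genes). The probe sets of 9 members have the suffix _s_at or _x_at, which marks probes that may also match another transcript.

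Most members varied little. The highest and the lowest of the 6 group means differed by less than 2-fold in 23 of the 31 tested members, with a median of 1.69-fold. The spread was 2-fold or more in 8 members and 4-fold or more in 2, HOX14 and HOX24. In crl1 before IAA, 1 array of HOX14 and both of HOX24 were not above background. With signals raised to background the spread was 11.6-fold in HOX14 and 5.74-fold in HOX24. The lowest group mean was that of wild type at 4 h in 11 members and that of crl1 at 0 h in 10, and the highest was that of crl1 at 2 h in 10. Neither the spread nor these counts were computed over all probe sets, so they do not set the members apart from other genes. In the heat map of the tested members, HOX14, HOX12 and HOX24 stand out from rows that are otherwise pale.

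**Figure D1:**
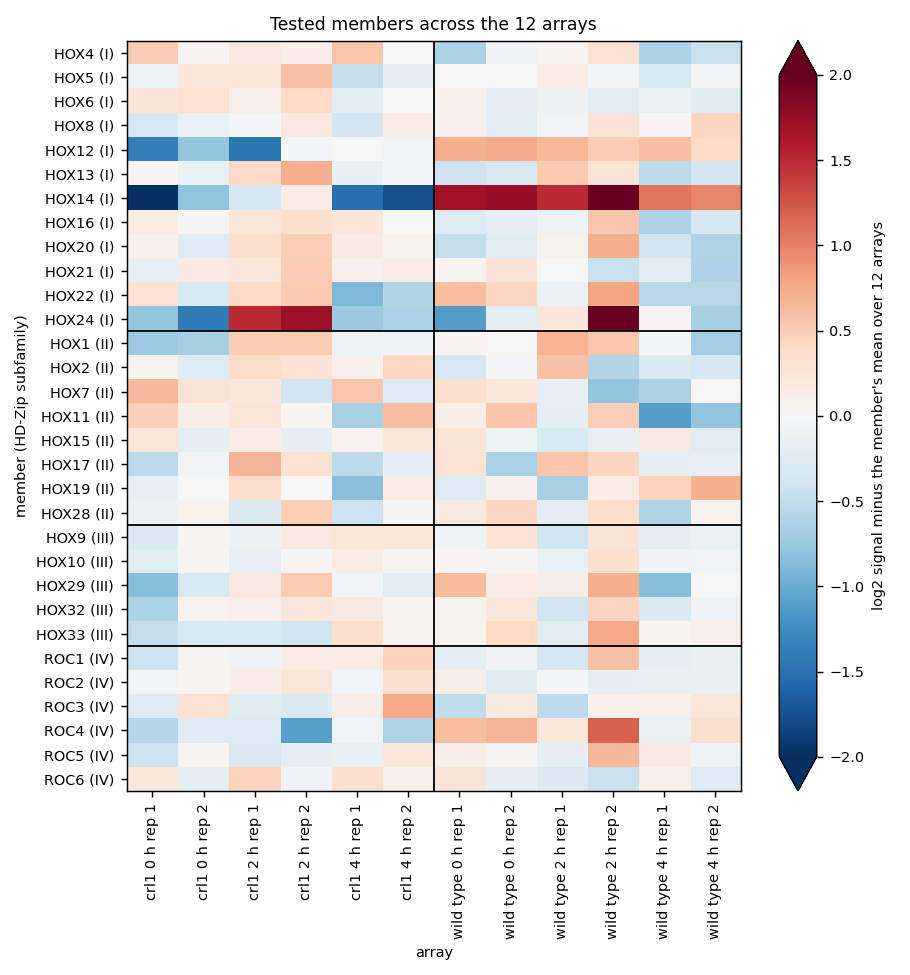
Log2 signal of each of the 31 tested members on each of the 12 arrays minus the member's mean over the arrays (colour, saturating at 2 in either direction), with crl1 arrays to the left of wild-type arrays and members ordered by HD-Zip subfamily (I to IV). HOX14 and HOX12 are red on every wild-type array and blue or near white on crl1 arrays, with HOX14 in crl1 2 h repetition 2 faintly red, and HOX24 is dark red on 3 of the 4 arrays at 2 h.

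Wild type 2 h repetition 2 stood apart. Computed across probe sets, which are no replicates, its correlations with the remaining arrays averaged 0.904, while those of the remaining arrays averaged 0.935 to 0.949. One of the GAPDH 3' to 5' ratios, a measure of RNA integrity, was 35.6 on it and 3.08 to 17.3 on the others, while the other GAPDH ratio was 22.99, within the 1.43 to 32.3 of the others. On it 42.8% of rice probe sets lay above background. The 3 green leaf markers (CAB2R, RBCS, RCA) were above background on every array and summed to 8069 to 11781 signal units in crl1 and 9766 to 17918 in wild type, with the maximum on that same array. The 12 root markers (PIN2, RAA1, WOX9 and genes of the PHT1 family) summed to 859 to 1149 in crl1 and 846 to 1057 in wild type. Of them 3 to 7 and 3 to 5 were at or below background. RBCS was lower in crl1 averaged over the times (-0.66 ± 0.12 log2, adjusted p = 0.0297), as were PIN2 (-1.79 ± 0.22, 0.00349) and RAA1 (-1.28 ± 0.18, 0.00732), all from limma. PIN2 was at or below background on 4 of the 6 crl1 arrays and RAA1 on 1. With signals raised to background their averaged differences were -1.30 and -1.27. Both were also called lower in crl1 at 0 h (adjusted p = 0.0266 each), where the raised values were -1.66 and -2.23. The root markers did not all move alike. Of the 9 tested, 5 were above 0 averaged over the times (median 0.004) and 6 at 0 h (median 0.06). All of those above 0 were PHT1 genes, while PIN2, RAA1 and WOX9 lay below 0 in both. WOX9 was dim, with 5.47 and 6.32 in crl1 at 0 h, not above background, against 13.1 and 16.4 in wild type. The part of these tissues in the member differences below was not tested.

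The first comparisons asked which members differ between crl1 and wild type. Averaged over 0, 2 and 4 h, 2 of the 31 members were called, at a limma adjusted p of at most 0.05, and both were lower in crl1. They were HOX12 and HOX14, HD-Zip I genes whose relative in barley, VRS1, sets the number of kernel rows. Of all probe sets tested, 1.38% were called in this comparison. An unadjusted p under 0.05 was reached by 9 of the 31 members and by 16.6% of all probe sets. The median member difference was 0.08 log2, against 0.03 for all probe sets.

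HOX14 (LOC4343726) showed the widest gap. Its signals in crl1 were 0.934 and 17.2 at 0 h, 23.7 and 33.5 at 2 h, and 10.4 and 8.93 at 4 h. In wild type they were 95.9 and 100.4 at 0 h, 84.6 and 150.04 at 2 h, and 63.3 and 59.2 at 4 h. Every crl1 array lay below every wild-type array. The averaged log2 difference was -3.09 ± 0.56 (SE, n = 6 arrays per genotype), an 8.54-fold lower signal in crl1, with a limma adjusted p of 0.0259. It was -3.71 in repetition 1 and -2.48 in repetition 2.

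The size of the HOX14 difference depended on 1 signal near 0. In crl1, repetition 1 at 0 h and repetition 2 at 4 h lay at or below the background of their arrays. With every signal raised to at least its array's background, the difference was -2.47 ± 0.19 (adjusted p = 4.83e-05), and HOX14 was then also called at 0 h (-2.74 ± 0.33, 0.00815) and at 4 h (-2.66 ± 0.33, 0.00891). Without crl1 0 h repetition 1 it was -2.39, and leaving out wild type 2 h repetition 2 gave -2.96 with an adjusted p of 0.0485. The adjusted p passed the threshold in 4 of the 12 fits that left out 1 array and was 0.0625 to 0.0912 in the other 8, which left out an array of crl1 2 h, crl1 4 h, wild type 0 h or wild type 4 h, with differences of -3.18 to -3.01.

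HOX12 (LOC4331956) is known in rice for its part in panicle exsertion, through gibberellin turnover. Its signals in crl1 were 36.2 and 54.2 at 0 h, 34.4 and 91.9 at 2 h, and 93.2 and 90.01 at 4 h. In wild type they were 153 and 159 at 0 h, 149 and 133 at 2 h, and 142 and 124 at 4 h. All 6 wild-type arrays lay above all 6 crl1 arrays, and both crl1 arrays at 4 h and repetition 2 at 2 h lay closest to them. The averaged difference was -1.22 ± 0.22 (SE, n = 6 arrays per genotype; limma adjusted p = 0.0264), a 2.34-fold lower signal in crl1, at -1.60 in repetition 1 and -0.85 in repetition 2. By time it was -1.82 ± 0.38 at 0 h, -1.32 ± 0.38 at 2 h and -0.53 ± 0.38 at 4 h, with adjusted p-values of 0.178, 0.356 and 0.842.

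HOX12 stayed called in 5 of the 12 fits that left out 1 array, among them the one without wild type 2 h repetition 2 (-1.25, adjusted p = 0.0363). In the other 7, without crl1 0 h repetition 1 or without an array of crl1 4 h, wild type 4 h or wild type 0 h, it was -1.26 to -1.13 with an adjusted p of 0.0585 to 0.0937. Same-numbered arrays of different groups deviated together weakly (r of 0.00776 to 0.249), so the 6 arrays of a genotype may not be independent. P-values of the genotype difference averaged over the times may then be too small. With repetition as a block, however, that of HOX12 was lower (limma adjusted p = 0.0144). Between times, an effect shared by same-numbered arrays would cancel, so p-values of the time comparisons may be too large.

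ROC4 (LOC4336705), an HD-Zip IV gene known in rice for leaf wax, came next without passing. Its signals in crl1 were 22.5 and 27.98 at 0 h, 27.7 and 15.7 at 2 h, and 32.1 and 22.1 at 4 h. In wild type they were 50.7 and 53.8 at 0 h, 38.7 and 75.8 at 2 h, and 30.5 and 41.6 at 4 h. The groups did not overlap at 0 h and 2 h and overlapped at 4 h. The averaged difference was -0.95 ± 0.23 (limma adjusted p = 0.0776). With each array centred on its median it was -1.05 ± 0.22 and passed (0.0463), as it did without wild type 2 h repetition 1 (-1.11 ± 0.21, 0.0130). That fit leaves the array that stood apart alone in its group and called 11.4% of all probe sets.

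**Figure D2:**
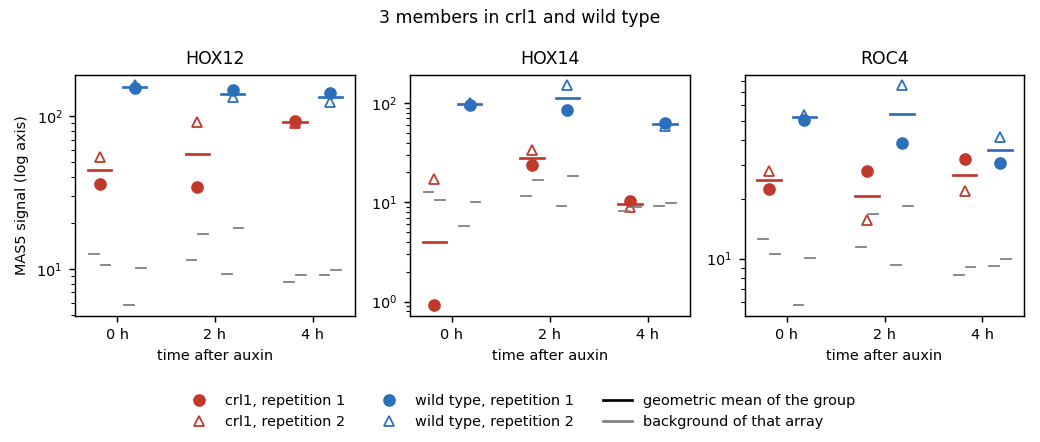
MAS5 signal (log axis) of HOX12, HOX14 and ROC4 on each array by time after auxin, with crl1 (red) left of wild type (blue), circles for repetition 1, open triangles for repetition 2, a bar at the geometric mean of the group and a grey dash at each array's background. All crl1 points of HOX12 and HOX14 lie under all wild-type points, and those of ROC4 overlap the wild-type points at 4 h.

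None of the members was called higher in crl1. The highest averaged value among the 31 was that of HOX4 (LOC4347333), which in rice restrains gibberellin responses, at 0.47 ± 0.16 (limma adjusted p = 0.175). Its signals were 318 and 229 in crl1 and 143 and 213 in wild type at 0 h, and 327 and 222 in crl1 and 145 and 164 in wild type at 4 h, so the genotypes stood apart at those times. At 2 h they overlapped, with 255 and 243 in crl1 and 228 and 276 in wild type. HOX7 was at 0.34 ± 0.20 (0.426), and HOX16, with signals of 1566 to 3491, at 0.33 ± 0.13 (0.237). The 95% interval of the averaged difference lay within 2-fold in both directions for 27 of the 31 members.

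At single times no member was called in the limma fit. The shares of all probe sets called were 0.101% at 0 h, 0.0738% at 2 h and 0.0799% at 4 h. An unadjusted p under 0.05 was reached by 6, 3 and 4 members at 0, 2 and 4 h. Both crl1 arrays lay below both wild-type arrays in 9 members at 0 h and 5 each at 2 h and 4 h, and above them in 4, 5 and 13. The share of all probe sets that stood apart in this way was not counted, so no excess among the members can be read from these counts. Some calls appeared when 1 array was left out. HOX12 was called at 0 h without crl1 2 h repetition 1 or 2 (-1.82, adjusted p = 0.0404 and 0.0435). HOX14 was called at 0 h without crl1 0 h repetition 2 (0.000921), which leaves 1 crl1 array with a signal not above background, so its signal in crl1 was at least 7.82-fold lower there. It was also called at 4 h without crl1 0 h repetition 1 or 2 (-2.67, 0.0268 and 0.0370). The fit without wild type 2 h repetition 1 leaves the array that stood apart alone in its group, and it called 14.7% of all probe sets at 2 h and 11.4% over the 3 times. In it HOX2 (0.90, 0.0329), HOX33 (-1.11, 0.0111), ROC4 (-1.86, 0.0167) and ROC5 (-0.88, 0.0441) were called at 2 h, and HOX2 (0.52, 0.0272) and HOX33 (-0.54, 0.0188) over the 3 times. The calls there came to 4 of 31 members at 2 h and 5 of 31 over the 3 times, HOX12 and HOX14 included.

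Several of the members that stood apart at 1 time did not at another. HOX1 (LOC4349388), known in rice from provascular cells, was at -0.70 ± 0.22 before IAA (adjusted p = 0.394). HOX19 (LOC4332147) was at -0.93 ± 0.42 at 4 h (0.683), where its signals were 10.5 and 20.6 in crl1 against 25.8 and 30.6 in wild type. HOX21 was at 0.59 ± 0.24 (0.427) and ROC6 at 0.57 ± 0.26 (0.455) at 2 h, and HOX20 at 0.63 ± 0.25 (0.624) and HOX16 at 0.60 ± 0.22 (0.580) at 4 h. The highest value at 4 h was that of HOX11, whose wild-type signals there, 4.02 and 4.99, were not above background. HOX6 and HOX13 were at 0.33 each at 0 h (SE 0.20; 0.636 and 0.654).

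**Figure D3:**
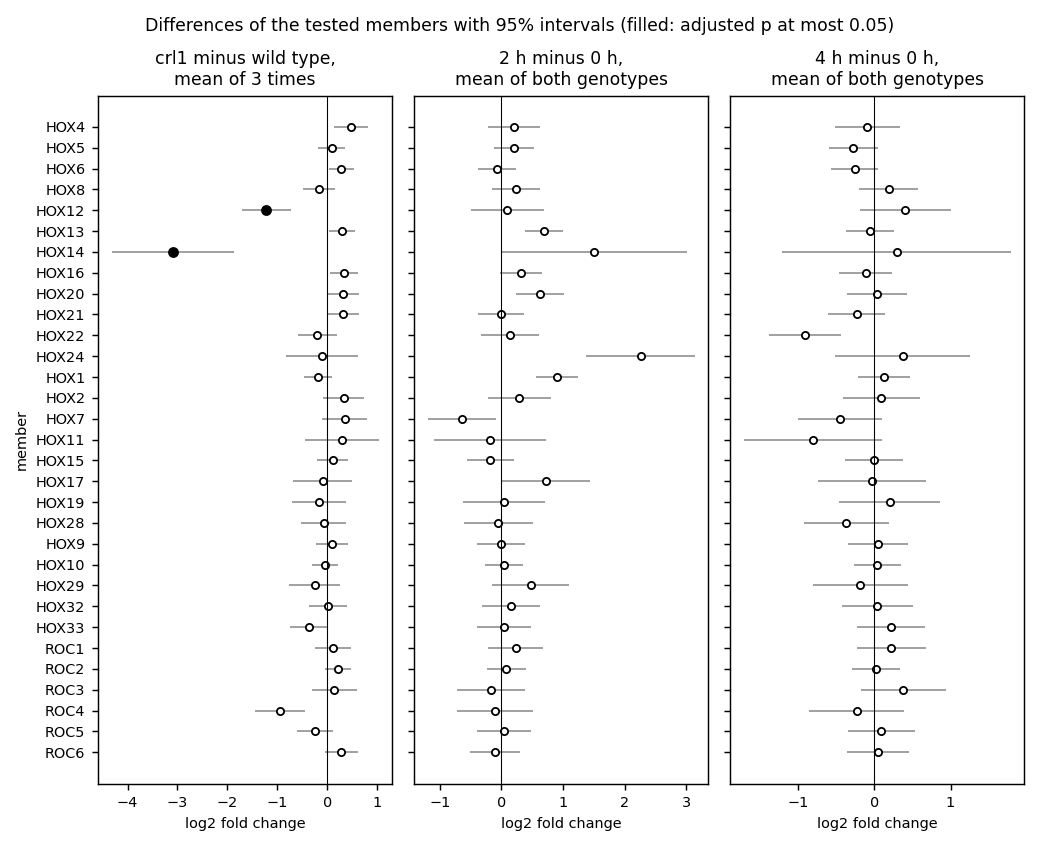
Log2 fold changes of the 31 tested members with 95% intervals for crl1 minus wild type averaged over 3 times, for 2 h minus 0 h and for 4 h minus 0 h, the last pair averaged over both genotypes; filled points have an adjusted p of at most 0.05. The only filled points are HOX12 and HOX14 in the first panel, and HOX24 lies farthest right in the second.

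The second set of comparisons asked which members moved after IAA. Averaged over both genotypes, 0 of the 31 members were called at 2 h and 0 at 4 h by limma, where 0.126% and 0.455% of all probe sets were. Within a genotype 0 were called as well. The shares of all probe sets were 0.00307% at 2 h and 0.0184% at 4 h in wild type, and 0.04% and 0.0154% in crl1. An unadjusted p under 0.05 was reached at 2 h by 7 members averaged over the genotypes, 5 in crl1 and 4 in wild type, and at 4 h by 1, 3 and 2. In the same order, 6.5%, 5.1% and 7.8% of all probe sets reached it at 2 h, and 8.8%, 6.2% and 6.9% at 4 h.

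Although no member passed, 7 had both arrays at 2 h on the same side of both arrays at 0 h in each genotype. HOX1, HOX13, HOX16, HOX17, HOX20 and HOX24 lay above and HOX7 below. At 4 h only HOX5 and HOX22 did so, both below. How many of all probe sets did so was not counted, so these counts do not set the members apart from other genes.

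HOX24 (LOC4330155), an HD-Zip I gene known in rice from drought and desiccation, had the largest 2 h value averaged over both genotypes. Its signals in crl1 were 61.1 and 71.3 at 2 h, against 12.5 and 8.25 at 0 h, where both arrays were at or below background. In wild type they were 25.4 and 92.6 at 2 h, against 10.0 and 18.8 at 0 h. At 4 h they were 13.01 and 13.9 in crl1 and 22.04 and 13.7 in wild type, close to the 0 h signals. The value at 2 h was 2.26 ± 0.40 log2 averaged over the genotypes (limma adjusted p = 0.0941), and in crl1 the signal was at least 5.74-fold higher at 2 h.

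HOX24 crossed the threshold in some other fits. With signals raised to background it was at 2.17 ± 0.37 (adjusted p = 0.0472). With the first of those GAPDH ratios as a covariate, 129 of all probe sets were called, against 41 without it. HOX24 was then at 2.23 ± 0.31 (0.0141). Without wild type 2 h repetition 1, which leaves the array that stood apart alone in its group, it was at 2.73 ± 0.31 (0.00369), and 4.3% of all probe sets were called, as holds for the fits without that array named below for this comparison.

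HOX1, an HD-Zip II gene, was higher on every 2 h array than on any 0 h array of the same genotype, without passing the test. Its signals in crl1 were 326 and 341 at 0 h, 765 and 764 at 2 h, and 508 and 509.7 at 4 h. In wild type they were 548 and 534 at 0 h, 877 and 789 at 2 h, and 530.4 and 334 at 4 h. At 2 h it was at 0.91 ± 0.15 averaged over the genotypes, 1.88-fold, with a limma adjusted p of 0.0751. HOX1 was called with repetition as a block (limma adjusted p = 0.0349) and with the block within genotype (0.0230). It was called with signals raised to background (0.0472), with the GAPDH covariate (0.0250), and without wild type 2 h repetition 1 (0.87, 0.0204), wild type 4 h repetition 1 (0.91, 0.0376) or wild type 4 h repetition 2 (0.91, 0.0375).

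HOX13 (LOC4331890) and HOX20 (LOC4345854), both HD-Zip I, also stood apart at 2 h in both genotypes, and were above background on all arrays. HOX13 had 324 and 407 in crl1 at 2 h, against 253 and 223 at 0 h, and 351 and 293 in wild type at 2 h, against 183 and 196 at 0 h. At 4 h it was at 221 and 240.2 in crl1 and 169.96 and 189 in wild type. The 2 h value was 0.69 ± 0.14 (limma adjusted p = 0.166), which passed with the GAPDH covariate (0.69 ± 0.12, 0.0497) and without wild type 2 h repetition 1 (0.62 ± 0.14, 0.0390).

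HOX20 had 173 and 193 in crl1 at 2 h, against 145 and 115 at 0 h, and 144 and 226 in wild type at 2 h, against 98.1 and 118 at 0 h. Its value was 0.62 ± 0.18 (adjusted p = 0.452), and 0.79 ± 0.15 (0.0251) without wild type 2 h repetition 1. A second probe set of HOX20 was at 0.71 ± 0.23 (0.602).

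HOX17 was at 0.73 ± 0.32 (adjusted p = 0.762), with 4 of 12 arrays at or below background. HOX16 was at 0.32 ± 0.16 (0.784), and a dimmer probe set of HOX16 at -0.10 ± 0.28 (0.963), so its probe sets disagreed in sign. HOX14 was at 1.51 ± 0.68 (0.763), and the crl1 signals at 0 h include 0.934, not above background. Without crl1 0 h repetition 2, which leaves that array alone in its group, it passed (0.0106), and in crl1 alone it was then called at 2 h (0.0140) and at 4 h (0.0475). Against the background of that array the signal in crl1 was at least 2.24-fold higher at 2 h, and no fold can be given at 4 h. In wild type alone, HOX16 (0.76, 0.0324), HOX20 (1.07, 0.0227) and HOX24 (2.76, 0.00990) were called at 2 h without wild type 2 h repetition 1. That fit rests on the array that stood apart as the only one of its group and called 10.4% of all probe sets, beside 3 of 31 members.

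HOX7 (LOC4329705), an HD-Zip II gene, was the member that lay below its 0 h signals at 2 h in both genotypes. It had 109 and 72.0 in crl1 at 2 h, against 147 and 113 at 0 h, and 84.4 and 54.6 in wild type at 2 h, against 119 and 109 at 0 h. Its value was -0.65 ± 0.25 (limma adjusted p = 0.712), and its second probe set was at -0.65 ± 0.24 (0.699). At 4 h it was at -0.45 ± 0.25 (0.666).

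HOX22 (LOC4336542), known in rice from abscisic acid and drought responses, lay lowest at 4 h. Its signals in crl1 were 197 and 132 at 0 h, 214 and 233 at 2 h, and 87.4 and 107 at 4 h. In wild type they were 247 and 219 at 0 h, 149.8 and 281 at 2 h, and 110.4 and 110.2 at 4 h. All 4 arrays at 4 h lay below all 4 at 0 h. The value was -0.91 ± 0.21 (limma adjusted p = 0.138), and it passed with array weights (0.0260) and without wild type 2 h repetition 1 (0.0278) or repetition 2 (0.0279). HOX5 was at -0.27 ± 0.15 (0.650), with signals of 1295 and 1564 in crl1 at 4 h, against 1657 and 2053 at 0 h, and 1432 and 1732 in wild type at 4 h, against 1768 and 1786 at 0 h.

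**Figure D4:**
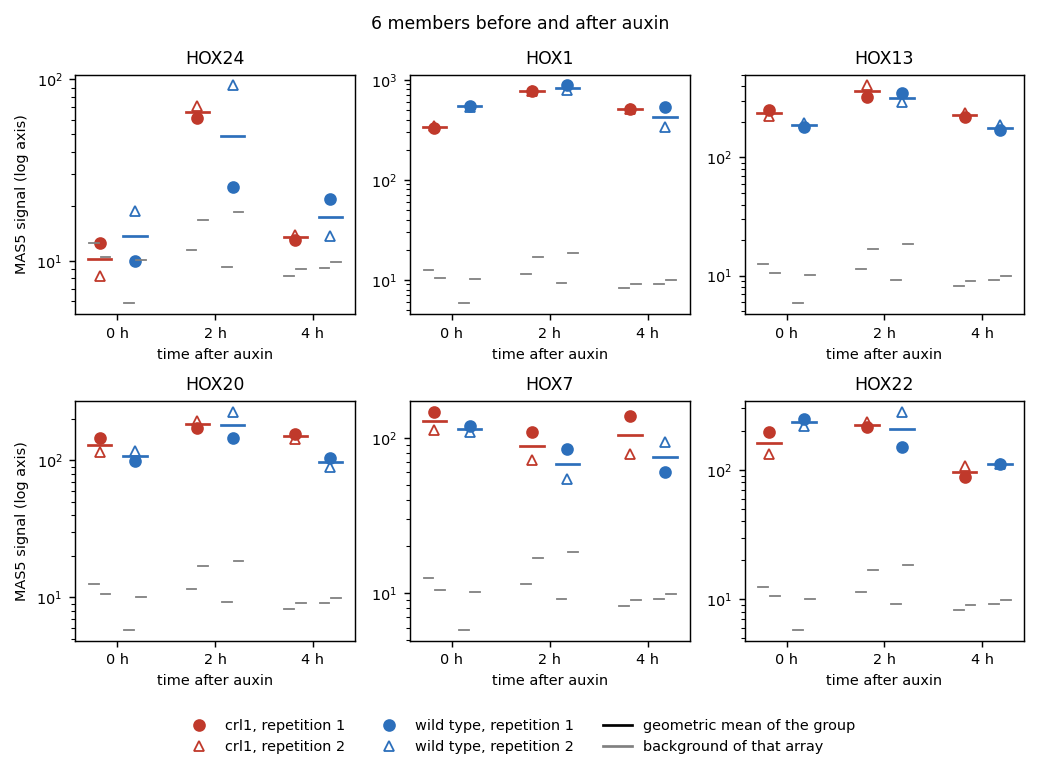
MAS5 signal (log axis) of HOX24, HOX1, HOX13, HOX20, HOX7 and HOX22 on each array by time after auxin, drawn with crl1 (red) left of wild type (blue), circles for repetition 1, open triangles for repetition 2, a bar at the geometric mean of the group and a grey dash at each array's background. HOX24, HOX1, HOX13 and HOX20 are highest at 2 h in both genotypes, HOX7 is lower at 2 h than at 0 h, and HOX22 is lowest at 4 h.

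Other large values at 4 h came from dim members or from 1 genotype. HOX11 (LOC4347205) was at -0.81 ± 0.41 averaged over the genotypes (limma adjusted p = 0.628), and in wild type its signals were 4.02 and 4.99 at 4 h, both at or below background, against 9.41 and 12.6 at 0 h, at least 1.15-fold lower. HOX19 was at 0.68 ± 0.42 in wild type (0.835), with 25.8 and 30.6 at 4 h, against 15.6 and 19.9 at 0 h. HOX12 was at 1.05 ± 0.38 in crl1 at 4 h (0.717) and at -0.24 ± 0.38 in wild type (0.964). HOX6 was at -0.38 ± 0.20 in crl1 (0.837).

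Over the tested members, the side of 0 on which they lay differed by genotype at 4 h. Of all probe sets, 59.8% were above 0 in crl1 and 50.8% in wild type at 4 h, and 56.3% and 46.9% at 2 h. In crl1 21 of 31 members were above 0 at 4 h (median 0.14 log2, against 0.09 for all probe sets), and in wild type 26 of 31 were below 0 (median -0.15, against 0.01). At 2 h 23 of 31 were above 0 in crl1 (median 0.22, against 0.05) and 17 of 31 in wild type (0.04, against -0.03). Centring each array on its median lowered all of these values alike, by 0.11 to 0.21, and with it 16 members were above 0 in crl1 at 2 h and 16 at 4 h. With quantile normalization 20 were above 0 in crl1 at 4 h and 26 below 0 in wild type.

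Whether the genotypes responded differently was tested as an interaction in the same fit, and limma called 0 of the 31 members at 2 h and 0 at 4 h. It also called 0% of all probe sets at either time. An unadjusted p under 0.05 was reached by 0 members at 2 h and by 3 at 4 h, and by 5.6% and 3.4% of all probe sets. The 3 members were HOX1 (0.97 ± 0.31, crl1 minus wild type), HOX12 (1.28 ± 0.54) and HOX29 (1.26 ± 0.57), each with an adjusted p of 0.990. The 4 h difference was above 0 in 26 of the 31 members (median 0.32, against 0.07 for all probe sets, of which 56.1% were above 0). It was also above 0 in 26 with median centring and in 24 with quantile normalization. At 4 h the 95% interval lay within 2-fold for 8 of the 31 members. For most it reached beyond, so differences of the responses larger than 2-fold were still within the error. The lowest values were those of HOX4 at 2 h (-0.64 ± 0.38, 0.868) and HOX19 at 4 h (-0.95 ± 0.60, 0.990). The highest at both times was that of HOX14, whose crl1 signals at 0 h include 0.934, not above background.

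In several comparisons all tested genes of a subfamily lay on 1 side of 0, most often in HD-Zip III, the smallest. Before IAA 5 of 5 were lower in crl1 (median -0.43 log2, against -0.03 for all probe sets), and at 4 h 5 of 5 were higher (median 0.29, against 0.03). From 0 h to 4 h 5 of 5 were above 0 in crl1 (median 0.41) and 5 of 5 below 0 in wild type (median -0.27). The difference of the 4 h responses was above 0 in 5 of 5 (median 0.74, against 0.07). These counts were also 5 of 5 with quantile normalization and with median centring, which moves all genes alike, and no single gene was called. They use the brighter HOX10 probe set. The dimmer one was also below 0 before IAA (-0.61) but lay on the opposite side in the other comparisons above. At 4 h it was lower in crl1. From 0 h to 4 h it was at -0.57 in crl1 and 0.82 in wild type. Its difference of the 4 h responses was -1.39 ± 0.56 (limma adjusted p = 0.990), against 0.31 for the brighter one. From 0 h to 2 h in crl1, HD-Zip III was also above 0 in 5 of 5 (median 0.17), but in 2 of 5 with centring. The dimmer HOX10 probe set was at -0.21 there. In HD-Zip II the difference of the 2 h responses was above 0 in 8 of 8 genes (7 with centring, 6 with quantile normalization). In HD-Zip IV the 4 h values in crl1 were above 0 in 6 of 6 (5 with either). The comparisons share the 0 h and 4 h arrays, so they are not separate evidence.

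HOX33 (LOC4352777), known in rice from leaf ageing, had 356 and 299 in crl1 at 4 h, against 204 and 229 at 0 h, and 293 and 307 in wild type at 4 h, against 295 and 376 at 0 h. Its difference of responses was 0.74 ± 0.40 (limma adjusted p = 0.990). HOX32 (LOC4333544), known in rice from leaf rolling, had 171 and 159.7 in crl1 at 4 h, against 97.5 and 159.4 at 0 h, and 124 and 144 in wild type at 4 h, against 159 and 177 at 0 h. HOX9 (LOC4348919) had 317 and 319 in crl1 at 4 h, against 222 and 274 at 0 h, and 236 and 246 in wild type at 4 h, against 258 and 328 at 0 h. In HOX32 and HOX9 both crl1 arrays at 4 h were above both at 0 h, and both wild-type arrays were below.

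HOX29 (LOC4327348) had 21.3 and 18.9 in crl1 at 4 h, against 12.2 and 17.6 at 0 h, and 12.2 and 22.3 in wild type at 4 h, against 34.2 and 24.4 at 0 h. The 4 h value in wild type was -1.49 in repetition 1 and -0.13 in repetition 2. A probe set that HOX29 shares with another locus was at -0.12 ± 0.14 for genotype averaged over the times, where its own was at -0.25 ± 0.23.

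HOX10 (LOC4331345) was measured by a pair of its own probe sets that disagreed. The brighter one had 413 and 488 in crl1 at 0 h, 431 and 487 at 2 h and 534 and 498 at 4 h. In wild type it had 493 and 500.3 at 0 h, 440.3 and 598 at 2 h and 452 and 465 at 4 h. Its averaged genotype difference was -0.05 ± 0.11 (limma adjusted p = 0.872).

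The dimmer HOX10 probe set, described here after its values were seen, had 24.7 and 40.5 in crl1 at 0 h, 23.5 and 31.9 at 2 h and 16.1 and 28.3 at 4 h. In wild type it had 61.6 and 37.9 at 0 h, 54.3 and 89.4 at 2 h and 88.2 and 82.9 at 4 h. The averaged difference was -1.32 ± 0.23 (limma adjusted p = 0.0226), lower in crl1, at -0.61 before IAA, -1.35 at 2 h and lower still at 4 h. It passed in 6 of the 12 fits that left out 1 array, among them the one without wild type 2 h repetition 2 (-1.20, 0.0361). In the other 6, without wild type 0 h repetition 1, crl1 0 h repetition 1, crl1 2 h repetition 1, either wild type 4 h array or crl1 4 h repetition 1, it was -1.33 to -1.18 with an adjusted p of 0.0571 to 0.0912. Which transcripts the probe sets detect was not tested.

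**Figure D5:**
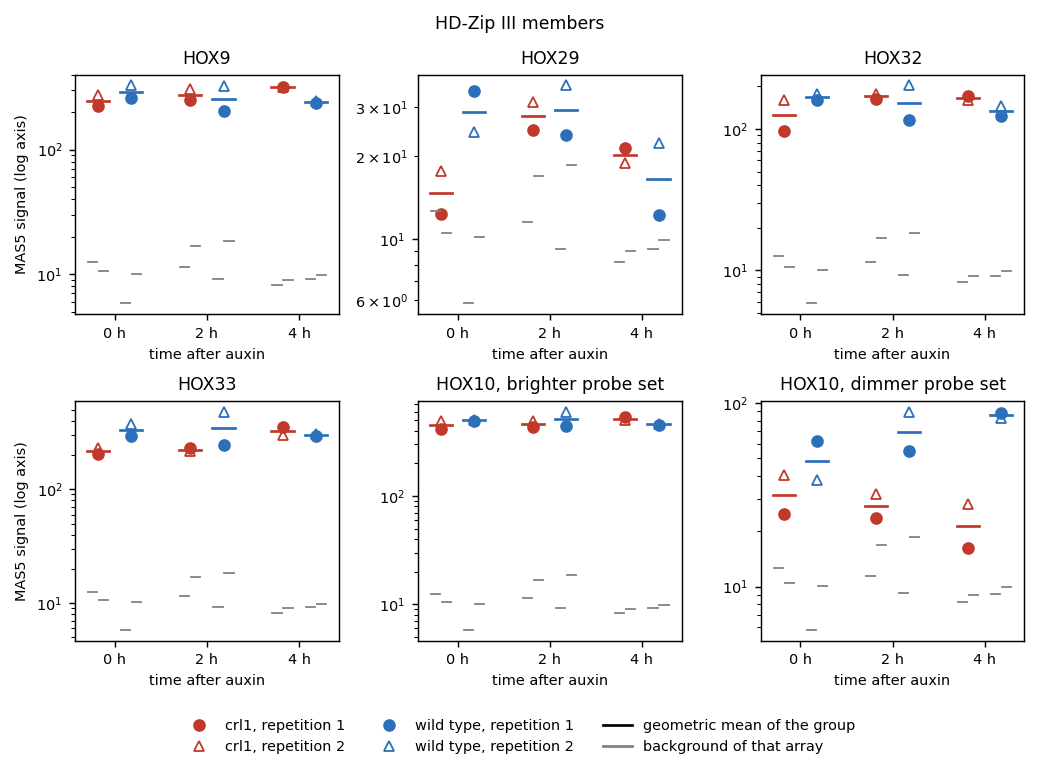
MAS5 signal (log axis) of the HD-Zip III genes HOX9, HOX29, HOX32 and HOX33 and of both HOX10 probe sets on each array by time after auxin, with crl1 (red) left of wild type (blue), circles for repetition 1, open triangles for repetition 2, a bar at the geometric mean of the group and a grey dash at each array's background. The crl1 bars lie under the wild-type bars at 0 h and above them at 4 h in all panels except that of the dimmer HOX10 probe set, whose crl1 bars lie lower at every time.

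With all arrays and the deposited scaling, no HD-Zip IV gene was called in any comparison. ROC2 (LOC4337074) ranged from 385 to 567 signal units over the 12 arrays, and its averaged genotype difference was 0.21 ± 0.12 (limma adjusted p = 0.401). ROC1 (LOC4344832) ranged from 272 to 543, with its maximum on wild type 2 h repetition 2, and ROC5 (LOC4330297), known in rice from bulliform cells and leaf rolling, from 274 to 570.2, with its maximum on the same array. ROC6 ranged from 157 to 295, and ROC3 from 24.5 to 59.7, with a 4 h value of 0.38 ± 0.25 (0.730). The 4 h difference of responses was above 0 in 6 of the 6 tested, with a median of 0.29, and in 5 of 6 with quantile normalization. Among the members not yet described, HOX8 (LOC4348492) ranged from 148 to 259 and HOX15 (LOC4347946) from 127 to 186, with averaged genotype differences of -0.17 ± 0.14 (0.575) and 0.11 ± 0.14 (0.744).

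HOX2 (LOC4340070) and HOX28 (LOC4340069) are neighbours in the gene table, with 0 genes between them. HOX28 is known in rice from tiller angle. Their averaged genotype differences were 0.32 ± 0.19 (limma adjusted p = 0.415) and -0.08 ± 0.21 (0.883), and their 4 h values 0.09 ± 0.23 (0.952) and -0.37 ± 0.25 (0.739), and no call was made for either. HOX2 was called higher in crl1 at 2 h (0.90 ± 0.24, 0.0329) without wild type 2 h repetition 1, a fit in which the array that stood apart was alone in its group.

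Homeobox genes of the KNOX, ZF-HD and WOX classes were set beside the HD-Zip genes. A search of the gene table for names of the BEL1 class found none, and further homeobox classes were not searched. Of 20 other homeobox genes with a probe set (9 KNOX, 4 ZF-HD and 7 WOX), 17 were tested. At 2 h averaged over the genotypes 2 of the 17 rose, both WOX genes, which act in stem cell niches and root initiation. They were WOX6 (2.40 ± 0.16 log2, limma adjusted p = 0.000282) and WOX11 (2.09 ± 0.18, 0.00124). None of the 17 was called by genotype averaged over the times, and 0 were at 4 h averaged over the genotypes. Genes of auxin response were called at 2 h in the same arrays. Of the GH3 genes, which conjugate auxin to amino acids, 3 of 8 tested rose, led by GH3.2 (4.51 ± 0.28, 0.000212). Of the Aux/IAA repressors 4 of 25 tested rose, led by IAA20 (LOC4340245, 1 of 2 genes with that symbol; 5.65 ± 0.51, 0.00148). At 4 h GH3.2 (3.72) and the same IAA20 (4.23) were called, and IAA2 was lower in crl1 averaged over the times (-0.63, 0.0412). A test of the difference between these genes and the HD-Zip genes was not run.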

How the data were processed

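Signal intensity values were deposited by the authors for 57381 probe sets on 12 arrays, computed with MAS5 in Affymetrix Expression Console per the submitters' processing notes (versions are not given in the sources used here). Each array's trimmed mean (2% off each end) was 100.01, so arrays share 1 scale. Gene symbols came from the array annotation and a RefSeq gene table, used for names only. HOX and ROC members, marker lists and the lists of other homeobox (KNOX, ZF-HD, WOX), GH3 and Aux/IAA genes were chosen with earlier results of these data known.

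Signals were taken to log2. Of 57194 rice probe sets, the 32524 above their array's median on at least 2 arrays were fitted in limma 3.58.1 (R 4.3.3) with 1 mean per group, 6 residual degrees of freedom and an intensity trend. Calls are at a Benjamini-Hochberg adjusted p of at most 0.05 over all of them. The script was tested on simulated data. Named were members called, the 3 highest and 3 lowest values per comparison, the member with the highest mean signal of each subfamily and members failing the filter. Other members are named to account for all 33, after their values were seen. "At least" folds set the dim group at its arrays' background.

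Repetition was not in the model, because no stated method uses it and nothing in the labels says that same-numbered arrays share plants; the block is an alternative. P-values measure only the spread between these 12 arrays, whose number limits the precision. Alternatives covered scaling, filter, offset, array weights, trend, a GAPDH ratio, probe set averaging, the block and leaving out each array; flooring at background and dropping the 2 h arrays were chosen after seeing the data. No promoter or protein sequences were used here.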

Additional observations from a re-analysis of the deposited data

How the results depend on the processing

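Of 296 alternative counts of called members, 258 stayed at or within 1.5 times the reported count and 38 did not. No value of a called member turned its direction. In crl1 against wild type at 0 h, 1 member was called with log2(signal + 16) and 1 with signals floored at background, and at 4 h 1 with the compared groups alone and 1 floored. Averaged over the times, where 2 were reported, 1 was called with the 75th percentile filter, which HOX14 did not pass, 1 with array weights, 0 without the intensity trend (adjusted p 0.0665 for HOX12 and 0.0710 for HOX14) and 1 over 0 and 4 h only. At 2 h against 0 h in both genotypes, 1 was called with repetition as a block, 1 with the block within genotype, 3 with the GAPDH covariate and 2 floored, and at 4 h 1 with array weights. Same-numbered arrays deviated together (r above 0.1) in 11 of 15 pairs of groups, with r of 0.00776 to 0.249, a hint from the data of shared effects that falls short of pairing every group. With the block the adjusted p was 0.0144 for HOX12, 0.0121 for HOX14 and 0.0349 for HOX1 at 2 h (0.0230 within genotype), and no other count of members moved by over 1.5 times. Leaving out each array in turn gave 0 to 1 calls at 0 h between genotypes, 0 to 4 at 2 h, 0 to 1 at 4 h and 0 to 5 averaged. The maxima of 4 and 5 come from leaving out wild type 2 h repetition 1, where 14.7% and 11.4% of all probe sets were called, against 0.0738% and 1.38% with all arrays. For time it gave 0 to 3 (2 h) and 0 (4 h) in wild type, 0 to 1 at both times in crl1, and 0 to 4 (2 h) and 0 to 1 (4 h) over both. In that same fit 10.4% of all probe sets were called at 2 h in wild type and 4.3% over both. The tests of differences between responses called 0 in all of these fits. Over all probe sets, calls averaged over the times numbered 449, and 1037 with the block. At 2 h over both genotypes they numbered 41, and 81 with the block, 104 with the block within genotype and 129 with the GAPDH covariate. At 4 h they numbered 148, and 283 with array weights. Between genotypes they went from 33 to 45 at 0 h with log2(signal + 16). At 4 h they went from 26 to 43 with the compared groups alone. ROC7, ROC8 and HOX11 were limited by background. The causes were not tested.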

Other observations

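Probe sets of 1 gene did not always give like values. A second probe set of HOX19 was at -1.59 ± 0.51 at 2 h averaged over both genotypes (limma adjusted p = 0.591), where the one used was at 0.04 ± 0.30 (0.988). For HOX16 at 4 h the other probe set was at 0.50 ± 0.28 (0.673) and the one used at -0.11 ± 0.16 (0.907).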
